A study of Mus musculus with 44 samples.

Results

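The comparison described here is that of liver from 4 mice lacking Mlkl with liver from 6 wild-type mice, all kept on a choline-deficient low-fat diet, which are 10 of the 44 RNA sequencing libraries of the series. The members were taken by genotype and diet as labelled. From 2 months of age, mice ate chow, the low-fat choline-deficient diet (CD-LFD) or its high-fat counterpart (CD-HFD), for 6 months. Besides wild type (WT), the series holds Mlkl-/- mice, written MlklKO, and Ripk3-/- mice, written Ripk3KO, with 1 library per liver sample. The labels name no cell-type-specific driver for either deletion, and give no sex, strain, batch or hour of dissection. Besides the 2 groups compared, the 3 Ripk3KO libraries on CD-LFD and the WT and MlklKO libraries on CD-HFD (6 and 3) and on chow (6 and 6) are used as references. In 2 of these reference libraries a marker stands apart from the rest of the group, MlklKO CD-HFD replicate 1 (Mlkl) and Ripk3KO CD-LFD replicate 3 (Xist), and the CD-HFD comparison, the counts between the knockouts and the clock-following class are given with and without them. The clock-following class also uses the Ripk3KO libraries on chow and on CD-HFD (6 and 4). Of those, Ripk3KO chow replicate 5 stands apart in Ripk3 and was kept.

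MLKL is the protein that ruptures the plasma membrane at the end of necroptosis, a lytic form of programmed cell death, and RIPK3 is the kinase that activates it. The liver also carries a circadian clock, in which BMAL1 (encoded by Arntl) with CLOCK or NPAS2 drives Per, Cry, Nr1d and Dbp family genes through E-box sequences, and the PER, CRY and REV-ERB proteins feed back on that drive. PAR-bZIP factors such as DBP and TEF then act on D-box sequences in many metabolic genes, so a large share of hepatic metabolism is expressed at a set time of day and also moves with feeding.

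The state of the clock was measured first, because it differed between the genotypes. As an index, the log2 ratio of Arntl to Dbp was taken in each library, since these transcripts peak at nearly opposite times of day. The 6 WT libraries on CD-LFD had an index from -2.66 to -0.276, with a median of -1.39. The 4 MlklKO libraries on CD-LFD had an index from -7.05 to -5.85, with a median of -6.32. The groups did not overlap and their means were 4.99 apart on the log2 scale (MlklKO minus WT, -4.99), so that on this diet genotype and clock phase cannot be told apart from these 10 libraries alone. The 3 Ripk3KO libraries on CD-LFD, from -7.33 to -6.10, overlapped the MlklKO range. On CD-HFD the MlklKO libraries ran from -6.10 to -5.19 (from -5.41 without replicate 1) and the WT libraries from -6.24 to -2.12, where 1 WT library (replicate 3) lay above -3.16, the middle of a gap of 1.01 in the index that splits the 44 libraries, and the other 5 lay below it. These WT and MlklKO groups on CD-HFD overlapped in phase, while on chow the WT libraries were spread from -7.88 to 2.69.

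**Figure D1:**
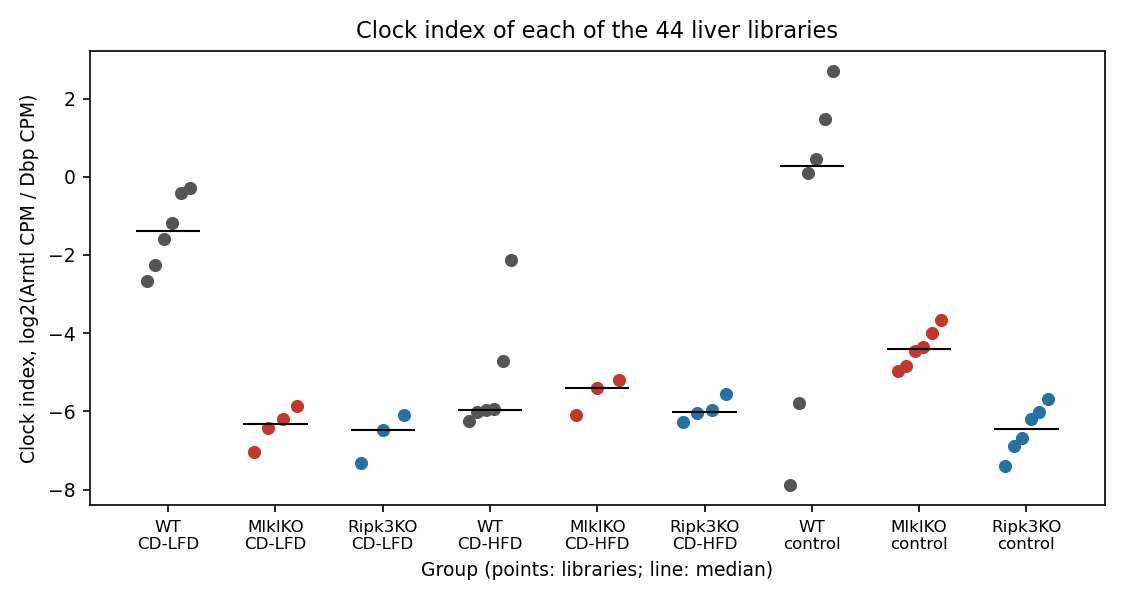
Clock index, the log2 ratio of Arntl to Dbp, in each of the 44 libraries (points) by genotype and diet, with the group median as a line. The 6 WT libraries on CD-LFD lie between -2.66 and -0.276 and the 4 MlklKO libraries on that diet between -7.05 and -5.85, beside the 3 Ripk3KO libraries.

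Genes that follow the clock were defined without the 10 libraries compared. In the other 34 libraries, which fall in 7 groups, each gene was regressed on the index with the group means removed, and 326 of 14862 tested genes (2.19%) had an adjusted p below 0.05 by the edgeR quasi-likelihood test. These genes are called clock-following below. Its size depends on which libraries are used. It fell to 10 genes without the WT chow libraries and to 110 in WT libraries alone, and held 274 without both reference libraries that stand apart (266 of them shared with the 326), so genes outside it cannot be taken as free of the clock. Arntl and Dbp belong to the class by construction. The 34 libraries also hold Ripk3KO chow replicate 5, with Ripk3 at 1.01 CPM of the library total. The rest of its group had 0 to 0.263 and the WT chow libraries 0.439 to 4.78. The class was not refitted without this library.

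Promoters of some clock genes carry short sequences that these factors bind. The 250 bases before the start of a few genes that moved with the index are printed here, picked to show such matches. They are from RefSeq on GRCm38.p6, a build older than the GRCm39 named by the submitters. Capitals mark the E-box CACGTG and the D-box TTATGTAA (TTACATAA on the other strand), all read 5′ to 3′ on the strand of the gene. Ciart, at chr3:95882229-95882478 on the minus strand, had 3 E-boxes. Per1, at chr11:69098699-69098948 on the plus strand, had 1 E-box, while its other window, at chr11:69099902-69100151, had no match and is not printed. Per3, at chr4:151044666-151044915 on the minus strand, had 2 D-boxes. Coq10b, at chr1:55052520-55052769 on the plus strand, had 1 of each.
Ciart: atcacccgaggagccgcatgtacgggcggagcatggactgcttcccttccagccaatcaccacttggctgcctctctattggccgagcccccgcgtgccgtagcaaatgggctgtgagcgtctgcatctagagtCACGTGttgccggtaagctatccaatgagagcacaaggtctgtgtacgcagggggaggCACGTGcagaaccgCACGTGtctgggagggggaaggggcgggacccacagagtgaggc
Per1: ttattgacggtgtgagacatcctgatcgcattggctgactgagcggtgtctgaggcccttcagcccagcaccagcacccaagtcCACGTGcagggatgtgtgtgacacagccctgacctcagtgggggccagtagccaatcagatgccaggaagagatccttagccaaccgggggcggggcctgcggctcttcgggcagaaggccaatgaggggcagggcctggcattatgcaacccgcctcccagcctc
Per3: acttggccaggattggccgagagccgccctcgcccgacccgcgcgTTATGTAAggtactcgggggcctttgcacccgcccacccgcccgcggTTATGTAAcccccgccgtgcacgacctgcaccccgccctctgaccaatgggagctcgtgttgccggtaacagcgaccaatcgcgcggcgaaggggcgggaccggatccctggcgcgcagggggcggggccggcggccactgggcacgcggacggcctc
Coq10b: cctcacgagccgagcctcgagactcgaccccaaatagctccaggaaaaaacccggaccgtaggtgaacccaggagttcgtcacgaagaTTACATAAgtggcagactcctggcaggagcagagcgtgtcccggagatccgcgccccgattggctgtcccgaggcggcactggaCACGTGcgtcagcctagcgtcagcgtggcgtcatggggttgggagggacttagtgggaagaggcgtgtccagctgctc
Over 32851 promoter windows of this length, searched on both strands, 6.02% held CACGTG and 0.932% held a D-box (TTATGTAA or TTACGTAA). Of the 17 core clock genes with a promoter in that table, 5 had an E-box and 1 a D-box. Of the 49 promoters found for the called clock-following genes that were higher in MlklKO, 9 held an E-box (18.4%) and 3 a D-box (6.12%), and of the 25 found for those that were lower, 1 held an E-box (4%) and none a D-box. For the called genes outside the class these were 26 (9.70%) and 2 (0.746%) of 268. A match is a description of the letters and no evidence of binding in these livers.

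Mlkl itself (ENSMUSG00000012519) was examined next as a check of the labels. In CPM, library-size scaled counts with TMM factors, Mlkl was at 9.85 to 14.5 CPM in WT, with a median of 11.2, and at 4.16, 2.98, 3.37 and 3.43 in the MlklKO libraries. All 4 MlklKO values lay below all 6 WT values, and reads from the gene were still counted in each knockout library. Mlkl fell by 1.71 ± 0.28 (log2, SE; edgeR adjusted p = 0.00016), and by 1.80 (adjusted p = 0.0197) with the clock index in the model. It was at 15.2, 9.49 and 12.5 CPM in the 3 Ripk3KO libraries. Ripk3 (ENSMUSG00000022221) was at 1.12 to 3.96 CPM in WT (median 2.38) and at 1.87, 1.94, 1.76 and 2.08 in MlklKO, values that overlap (log2 difference -0.28 ± 0.47, edgeR adjusted p = 0.847). Of the other 24 members of the necroptosis and inflammatory cell death list, none passed the test on CD-LFD, which at 2.56% called of all tested genes shows nothing particular to the list.

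The MlklKO libraries held 6660141 to 12471844 counts and the WT libraries 4960324 to 7267277, apart from WT replicate 3 with 88204703. WT replicates 5 and 6 stood apart from the other 8 libraries on the first principal component (32.5% of the variance), and the summed hepatocyte markers were at 88842 to 129790 CPM over all 6 WT libraries, at 96946 to 129790 without these 2 and at 128190 to 141370 in MlklKO, ranges that overlap. Hepatocyte identity was plain in every library, and of the pancreas and skeletal muscle markers 3 each had no count in all 10. In bulk liver, fewer cells of a type and less RNA per cell cannot be told apart. Nothing in the labels says how the animals of a group were housed or taken, so p-values measure the spread between these samples.

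Between MlklKO and WT on CD-LFD, 381 of 14862 genes passed an adjusted p of 0.05 (2.56%), of which 243 were higher (1.64% of tested) and 138 lower (0.929% of tested) in MlklKO. At least a 2-fold difference was seen for 213 of them, 137 higher and 76 lower. Values of the groups did not overlap for 327 of the 381, against 6.98% of all tested genes. Of the 381, 75 were clock-following (19.7%, where 2.19% of tested genes are), 49 higher and 26 lower, and 306 were outside the class, 194 higher and 112 lower. Of the clock-following genes 23.0% were called, and of the others 2.11%. Without WT replicates 5 and 6 the count was 175. Scaling by library size alone, which moved the median log2 difference of all genes from -0.0019 to -0.23, turned the split to 148 higher and 725 lower.

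Of the 22 core clock genes tested, 7 were higher (Ciart, Per1, Per2, Per3, Dbp, Tef, Bhlhe41) and 1 lower (Arntl), beside 1.64% and 0.929% of all tested genes, and 14 did not pass. Ciart, a repressor of BMAL1, was at 2.10 to 6.35 CPM in WT (median 4.35) and at 73.8, 64.8, 55.8 and 84.0 in MlklKO, all above WT (log2 difference 4.09 ± 0.62, edgeR adjusted p = 9.09e-05). Arntl was at 9.03 to 18.8 CPM in WT (median 10.7) and at 2.88, 2.38, 1.92 and 0.745 in MlklKO, all below WT (-2.55 ± 0.54, edgeR adjusted p = 0.00412). Dbp was at 15 to 61.5 CPM in WT (median 29.9) and at 179, 193, 185 and 129 in MlklKO (2.34 ± 0.55, edgeR adjusted p = 0.0126; 0.0684 without WT replicates 5 and 6). Arntl was below every WT value, and Ciart and Dbp above every WT value, in all 4 MlklKO livers. Npas2, the partner of BMAL1 that can stand in for CLOCK, went the way of Arntl, with 3.07 to 7.21 CPM in WT (median 4.47) and 1.36, 1.04, 1.28 and 0.149 in MlklKO, but did not pass (-2.30 ± 0.70, edgeR adjusted p = 0.0652).

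Among the negative regulators, Per1 was at 35.3 to 75.1 CPM in WT (median 59.7) and at 131, 106, 110 and 167 in MlklKO (1.16 ± 0.25, edgeR adjusted p = 0.0045). Per2 was at 27.9 to 65 CPM in WT (median 43.6) and at 81.0, 79.9, 70.4 and 217 in MlklKO (1.31 ± 0.32, adjusted p = 0.0151), and lost its call without MlklKO replicate 4 (adjusted p = 0.261). Per3 was at 11.3 to 32.4 CPM in WT (median 15.7) and at 54.2, 50.5, 63.0 and 78.8 in MlklKO (1.79 ± 0.44, adjusted p = 0.0174). All 3 Per genes had every MlklKO value above every WT value, and the Per3 call was lost without MlklKO replicate 4 (adjusted p = 0.0668), without WT replicate 6, or without WT replicates 5 and 6 together (adjusted p = 0.104). Tef, at 80.6 to 125 CPM in WT (median 94.2) and 229, 242, 250 and 276 in MlklKO, differed by 1.36 ± 0.29 (adjusted p = 0.00462). Bhlhe41, a repressor that binds E-boxes, was at 2.13 to 4.53 CPM in WT (median 2.92) and 12.5, 7.45, 8.66 and 6.55 in MlklKO (1.49 ± 0.34, adjusted p = 0.00959), lost its call without MlklKO replicate 1, and was the only one of the 8 called core genes outside the clock-following class.

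Other core genes did not pass either. Clock (-0.36), Nr1d2 (0.48) and Hlf (0.79) had groups that did not overlap, while the values of Cry1 (0.19), Cry2 (0.85), Nr1d1 (0.21), Rora (0.17), Nfil3 (-0.48), Bhlhe40 (0.03), Csnk1d (-0.09) and Csnk1e (-0.50) overlapped (log2 differences; edgeR adjusted p from 0.0814 to 0.975). MlklKO replicate 4, which had the lowest index, also stood apart in this set. Its Nr1d1 was at 27.7 CPM where the others had 150, 83.5 and 172. With the clock index in the model no core clock gene passed. For Arntl and Dbp, which define the index, that follows from the construction, and Per3 went from 1.79 to -0.18.

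**Figure D2:**
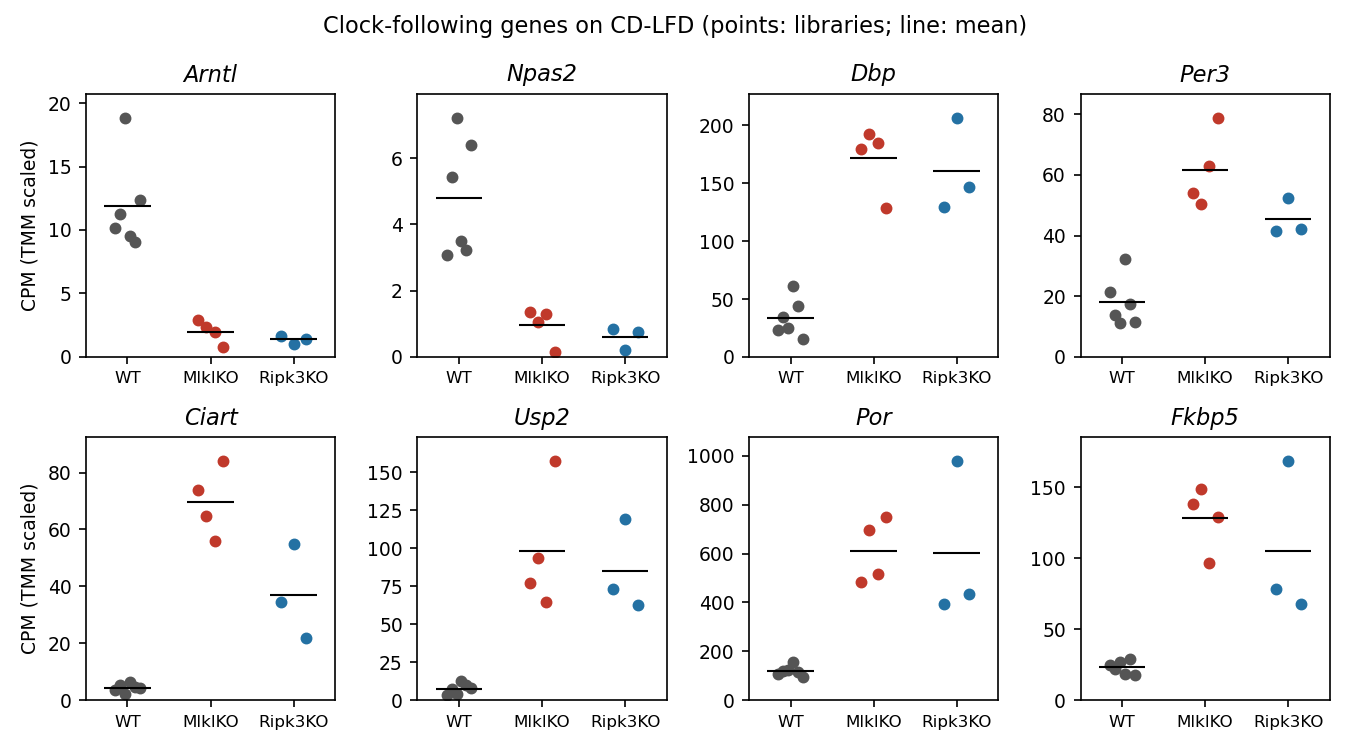
CPM (TMM scaled, linear axes from 0) of 8 clock-following genes in the 6 WT, 4 MlklKO and 3 Ripk3KO libraries on CD-LFD (points), with group means as lines. MlklKO and Ripk3KO lie together, below WT for Arntl and Npas2 and above WT for Dbp, Per3, Ciart, Usp2, Por and Fkbp5.

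Of the 29 tested output genes of the liver clock, 8 were higher, 2 lower and 19 did not pass (2.56% of all tested genes were called), and 8 of the 10 called were clock-following. Usp2, a ubiquitin protease with strong daily rhythm, was at 3.35 to 12.5 CPM in WT (median 7.80) and at 77.2, 93.9, 64.8 and 157 in MlklKO (3.73 ± 0.66, edgeR adjusted p = 0.000461). Por, the electron donor of microsomal cytochromes P450, was at 93.5 to 155 CPM in WT (median 117) and at 483, 697, 515 and 749 in MlklKO (2.36 ± 0.33, edgeR adjusted p = 4.15e-05). Coq10b, a coenzyme Q binding protein, was at 16.3 to 36.0 CPM in WT (median 21.4) and at 65.9, 89.7, 59.2 and 92.0 in MlklKO (1.78 ± 0.27, edgeR adjusted p = 9.09e-05). None of these 3 genes overlapped between the groups. Upp2 (2.02), Lpin1 (1.73), Gys2 (1.47), Alas1 (1.41) and Gpcpd1 (1.63) were also higher, and Leo1 (-1.01) and Avpr1a (-1.32) lower, with adjusted p from 0.00016 to 0.0456. Por was the single clock-following gene that passed both with and without the index in the model (with it, 1.20, adjusted p = 0.0355).

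Ranked by size among called clock-following genes that pass the naming rule (no overlap of the groups, no predicted-gene symbol and a mean log2 CPM not under 1), the leading genes also included Zbtb16, Fkbp5, Tubb2a, Rnf125 and Chka. Fkbp5, a co-chaperone of the glucocorticoid receptor that this receptor induces, was at 18.0 to 29.3 CPM in WT (median 23.5) and at 138, 149, 96.4 and 129 in MlklKO (2.46 ± 0.37, edgeR adjusted p = 9.09e-05). Zbtb16, a zinc finger factor also induced by glucocorticoids, was at 3.67 to 16.9 CPM in WT (median 9.32) and at 74.8, 48.0, 63.7 and 45.4 in MlklKO (2.48 ± 0.49, adjusted p = 0.00201). Tubb2a, a beta-tubulin, was at 237 to 581 CPM in WT (median 309) and at 66.6, 58.6, 65.8 and 56.9 in MlklKO (-2.48 ± 0.40, adjusted p = 0.00016). That the groups do not overlap in these 3 is required by the rule. Rnf125, a ubiquitin ligase, fell by 2.38 ± 0.49 (adjusted p = 0.00312). Chka, choline kinase alpha, was at 84.3 to 367 CPM in WT (median 145) and 69.1, 54.7, 41.2 and 61.2 in MlklKO (-1.55 ± 0.45, adjusted p = 0.0497), and its call was lost in 8 of the 10 fits that left out 1 library.

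The direction of the clock-following genes can be set against their slopes in the other 34 libraries. The slope times the difference in index gives a sign for each gene. All 75 called clock-following genes had that sign, as did 304 of all 326 (93.3%), against 66.5% of all tested genes. The 306 called genes outside the class had it too in 266 cases (86.9%), and 97 of them had a slope with an unadjusted p below 0.05, against 15.2% of the tested genes outside the class. What part the clock has in the 306 cannot be told apart from genotype by this class alone.

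The index was then put into the model as a covariate. This left 18 of the 14862 genes (0.121%), 10 higher and 8 lower, and 15 of these were among the 381. The slope of the index is fitted to its spread within groups. That spread was widest in the WT chow libraries (SD 4.29, elsewhere 0.293 to 1.59), so the adjustment leans on those livers. Of the 381, 373 kept their direction, namely 305 of the 306 outside the class and 68 of the 75 in it. Differences of the called clock-following genes shrank to a median 0.289 of their size, and those of the called genes outside the class to 0.742. The class was chosen by its slope on the same index, mostly in the same libraries, so the gap between these ratios follows from that choice. Standard errors grew 1.15-fold at the median. An unadjusted p below 0.05 remained for 208 of the 306 and 20 of the 75, against 7.11% of all tested genes. The 381 were picked by the same contrast in the same libraries, so these counts and the kept directions follow in part from that choice. An index from other clock genes (Npas2, Clock and Cry1 against Per3, Nr1d2, Ciart and Tef) left 19 genes, and a phase in 2 levels left 1.

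**Figure D3:**
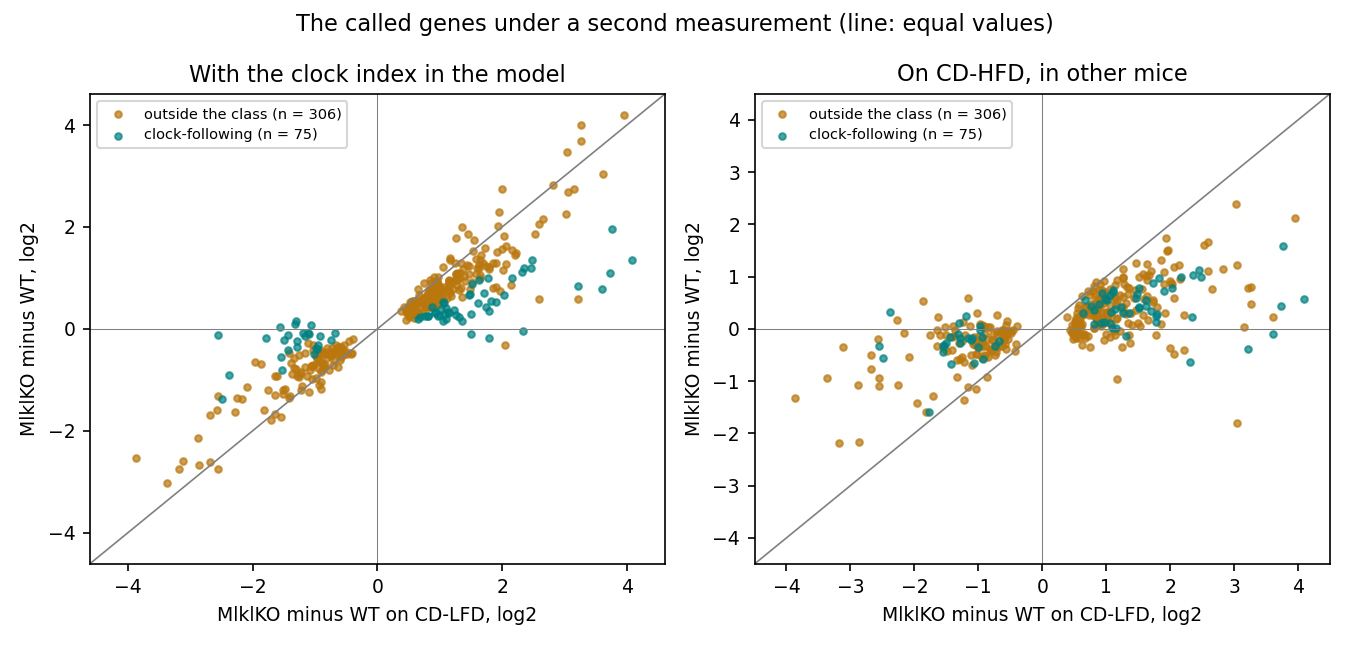
MlklKO minus WT on CD-LFD (horizontal, log2) of the 381 called genes against the same difference with the clock index in the model (left) and against MlklKO minus WT on CD-HFD in other mice (right), with the line of equal values. Clock-following genes (n = 75) lie at a median 0.289 of their size on the left and the 306 others at 0.742, a gap that follows from how the class was chosen.

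The 15 genes called both ways are named for that reason and not by the rule of size. Besides Mlkl and Por they were Slc43a1, Rhbdd2, Pim3, Nlrp12, Angptl4, Eif4ebp3, Gm48199, Gm35696 and Gm44787, which were higher, and Pxdc1, Tsc22d1, Tuba1c and Ankrd26, which were lower. Slc43a1, an amino acid transporter, was at 4.33 to 9.25 CPM in WT (median 5.54) and at 17.2, 15.6, 14.3 and 19.96 in MlklKO, with no overlap (1.45 ± 0.25, edgeR adjusted p = 0.000322; with the index 1.85, adjusted p = 0.0101). Pim3, a serine/threonine kinase, was at 58.4 to 83.8 CPM in WT (median 78.8) and at 246, 270.3, 195 and 185 in MlklKO, again with no overlap (1.58 ± 0.22, edgeR adjusted p = 4.15e-05; with the index 1.36, adjusted p = 0.0238). Rhbdd2, a rhomboid family protein, was at 8.52 to 15 CPM in WT (median 11.9) and at 38.2, 36.7, 36.7 and 33.5 in MlklKO (1.60 ± 0.21, edgeR adjusted p = 1.3e-05; with the index 1.20, adjusted p = 0.0238). In all 3 every MlklKO value was above every WT value. Tsc22d1, a leucine zipper transcription factor, was at 117 to 215 CPM in WT (median 149) and at 53.7, 63.3, 53.1 and 29.6 in MlklKO (-1.64 ± 0.28, adjusted p = 0.000304; with the index -1.66, adjusted p = 0.0238). Tuba1c, an alpha-tubulin, was at 90.5 to 203 CPM in WT (median 101) and at 36.9, 41.9, 35.1 and 61.2 in MlklKO (-1.41 ± 0.24, adjusted p = 0.000289; with the index -1.36, adjusted p = 0.0309).

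Angptl4, an inhibitor of lipoprotein lipase that rises with fasting, was at 68.1 to 164 CPM in WT (median 109) and at 366, 415, 361 and 173 in MlklKO (1.56 ± 0.30, edgeR adjusted p = 0.00132; with the index 1.75, adjusted p = 0.0455). Eif4ebp3, a repressor of cap-dependent translation, was at 0.533 to 3.35 CPM in WT (median 1.81) and at 7.21, 4.62, 8.34 and 7.30 in MlklKO (2.01 ± 0.39, adjusted p = 0.00166; with the index 2.74, adjusted p = 0.0309). Both were above WT in all 4 knockout livers. A further 3 genes passed only with the index. They were Lig1, a DNA ligase (-0.68 without and -1.30 with the index, adjusted p = 0.0125), Srebf1, the master activator of fatty acid synthesis (-0.76 without and -1.44 with it, adjusted p = 0.0415), and Gm16286 (-0.39 without and -0.72 with it, adjusted p = 0.0238). With the index from other clock genes Lig1 was called (adjusted p = 0.0173), and Srebf1 (0.0667) and Gm16286 (0.126) were not, nor was Angptl4 (0.0956). Lig1, Srebf1 and Gm16286 were clock-following, and the values of Srebf1 overlapped between the groups, at 142 to 298 CPM in WT (median 194) and 100, 76.4, 143 and 182 in MlklKO.

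Among called genes outside the clock-following class that pass the same rule, the largest rises included Lepr, Acot1, AC154912.1, AA986860, Eif4ebp3, Scara5 and Asns. Lepr, the leptin receptor, was at 0.932 to 6.42 CPM in WT (median 2.76) and at 16.5, 35.9, 35.6 and 7.30 in MlklKO, which spread widely but stayed above WT (3.03 ± 0.57, edgeR adjusted p = 0.0011). Acot1, an acyl-CoA thioesterase induced through PPAR-alpha, was at 0.618 to 4.99 CPM in WT (median 2.73) and at 15.9, 37.9, 7.86 and 12.1 in MlklKO (2.53 ± 0.57, adjusted p = 0.00732), and lost its call without MlklKO replicate 2 (adjusted p = 0.106) or without WT replicates 5 and 6 together (adjusted p = 0.0615). Neither gene overlapped between the groups, which the rule requires. Scara5, a ferritin receptor, was at 4.84 to 12.9 CPM in WT (median 5.72) and at 34.7, 32.2, 26.1 and 18.9 in MlklKO (1.93 ± 0.37, adjusted p = 0.00134). Asns, asparagine synthetase, was at 5.06 to 17.0 CPM in WT (median 8.04) and at 38.1, 35.3, 34.6 and 26.2 in MlklKO (1.92 ± 0.39, adjusted p = 0.00246). AC154912.1 (2.22 ± 0.50) and AA986860 (2.06 ± 0.33) are transcripts with no function stated here.

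By the same rule, which asks for no overlap, the largest falls outside the class included Fgf21, Atp2b2, Hr, Fam83f, Mlkl, Tsc22d1, Chrm3 and Elf3. Fgf21, a hepatokine secreted under protein restriction, fasting and mitochondrial stress, was at 59.1 to 203 CPM in WT (median 76.5) and at 12.5, 11.3, 15.9 and 13.0 in MlklKO, all below WT (-2.86 ± 0.45, edgeR adjusted p = 0.000119). With the index it was at -2.66 (adjusted p = 0.102). Atp2b2, a plasma membrane calcium pump, was at 8.16 to 27.8 CPM in WT (median 12.3) and at 2.20, 2.09, 5.13 and 0.447 in MlklKO (-2.56 ± 0.53, adjusted p = 0.00328). Fgf21 and Atp2b2 kept their calls whichever 1 of the 10 libraries was left out. Hr (-1.87), a corepressor, and Fam83f (-1.75) were lost without MlklKO replicate 2, Hr also without MlklKO replicate 4 and Fam83f also without MlklKO replicate 1. Chrm3 (-1.63), a muscarinic receptor, was lost in 7 of the 10 such fits and Elf3 (-1.60), an epithelial ETS factor, in 6.

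**Figure D4:**
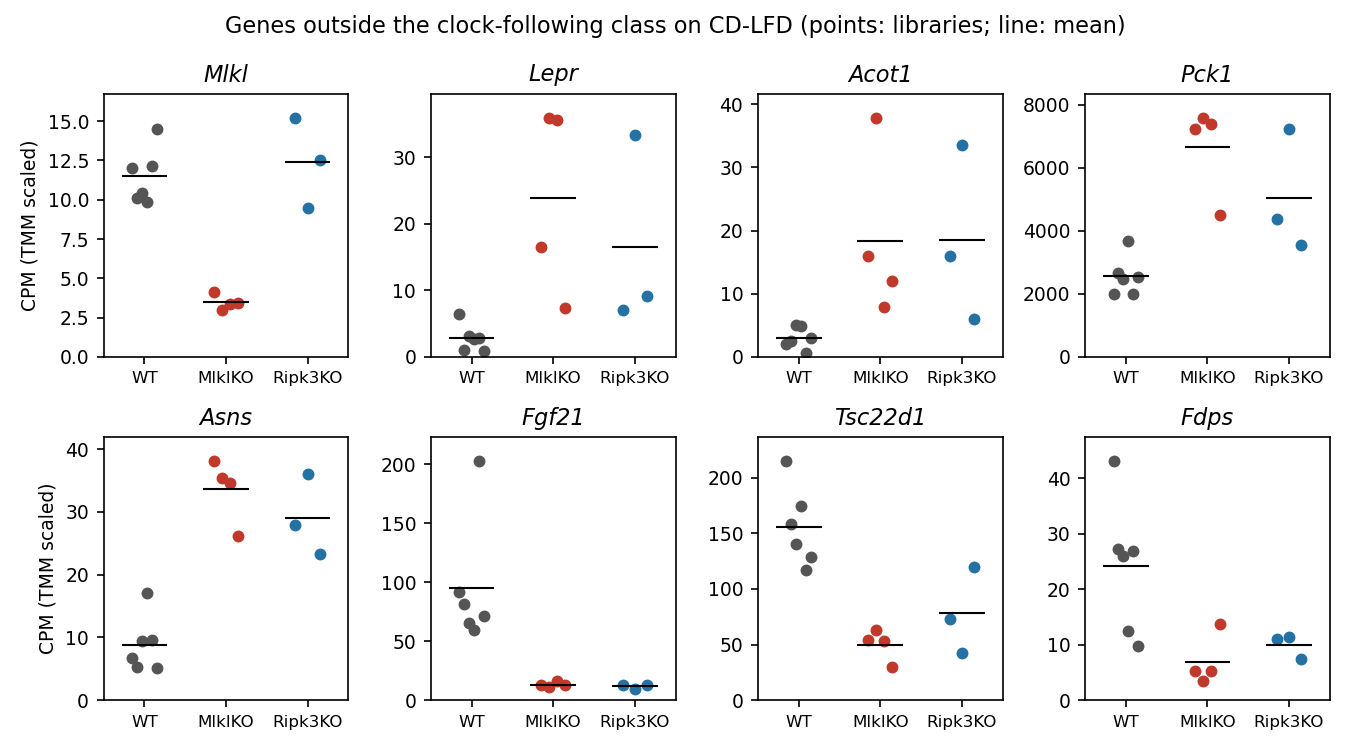
CPM (TMM scaled, linear axes from 0) of 8 genes outside the clock-following class in the 6 WT, 4 MlklKO and 3 Ripk3KO libraries on CD-LFD (points), with group means as lines. Mlkl is low only in MlklKO (2.98 to 4.16 CPM), while for Fgf21, Asns and Pck1 the Ripk3KO libraries lie near the MlklKO ones.

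Fasting and feeding genes were called in both directions. Of 22 tested, 5 were higher (Fkbp5, Asns, Angptl4, Tat and Pck1), 1 lower (Fgf21) and 16 did not pass, and only Fkbp5 of the called was clock-following. Pck1, the gatekeeper enzyme of gluconeogenesis, was at 1987 to 3669 CPM in WT (median 2510) and at 7220, 7584, 7376 and 4511 in MlklKO (1.38 ± 0.27, edgeR adjusted p = 0.00152). Tat, tyrosine aminotransferase, was at 725 to 1410 CPM in WT (median 904) and at 2787, 3596, 2866 and 1702 in MlklKO (1.44 ± 0.30, edgeR adjusted p = 0.00328). Both enzymes were above WT in all 4 knockout livers. The list's median log2 difference was 0.32, beside -0.0019 over all tested genes, of which 2.56% were called.

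Periportal hepatocyte genes, which serve urea synthesis and gluconeogenesis near the portal vein, were higher in 5 of 10 (among them Pck1, Sds, Gls2 and Ass1) and lower in none, with a median of 0.74. Over all tested genes 1.64% were called higher, 49.7% were positive and the median was -0.0019. Sds, serine dehydratase, was at 83.1 to 260 CPM in WT (median 183) and at 488, 418, 457 and 353 in MlklKO (1.27 ± 0.29, edgeR adjusted p = 0.00777). Sds had no overlap between groups, and lost its call without WT replicates 5 and 6 (edgeR adjusted p = 0.055). Pericentral genes were higher in 1 of 10 (Cyp2e1, 0.89) with a median of 0.02, and general hepatocyte markers higher in 2 of 10 (Tat and Ass1) with all 10 positive. Without WT replicates 5 and 6, whose hepatocyte marker sums were low, 2 of the periportal and 1 of the hepatocyte genes were called and Cyp2e1 was not, and what part those sums have in the result was not tested.

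In fatty acid oxidation and PPAR-alpha target genes, 4 of 22 were higher (Acot1, Cyp4a31, Cpt1a and Acadl) and 1 lower (Fgf21), beside 1.64% and 0.929% of all tested genes. Cpt1a, which controls entry of fatty acids into mitochondria, was at 130 to 260 CPM in WT (median 180) and at 331, 359, 467 and 445 in MlklKO (1.05 ± 0.25, edgeR adjusted p = 0.0138). Cyp4a31 (1.69, adjusted p = 0.0235) is a fatty acid hydroxylase and Acadl (0.56, adjusted p = 0.0288) a dehydrogenase of beta-oxidation. Of the 22, 20 were positive (49.7% of all tested genes were), with a median of 0.50. The Cpt1a call was lost without MlklKO replicate 3 or 4, and that of Cyp4a31 without any 1 of WT replicates 1 and 3 or MlklKO replicates 1, 3 and 4. Without WT replicates 5 and 6 none of the 4 rises was called, and Fgf21 was.

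Of 20 lipogenesis genes, which build fatty acids, 2 were higher (Fads2, 1.23, and Fads1, 0.81, the desaturases of polyunsaturated fatty acids), 1 was lower (Fasn, fatty acid synthase) and 17 did not pass (2.56% of all tested genes were called), with a median of -0.36. Fasn was at 513 to 3146 CPM in WT (median 876) and at 402.5, 304, 617 and 340.3 in MlklKO, values that overlap (-1.54 ± 0.37, edgeR adjusted p = 0.0138), and its call was lost without WT replicate 1, MlklKO replicate 2 or MlklKO replicate 4. Of 20 cholesterol synthesis genes, none was higher and 2 were lower. Fdps, farnesyl diphosphate synthase, was at 9.86 to 43.1 CPM in WT (median 26.4) and at 5.34, 3.43, 5.29 and 13.7 in MlklKO (-1.82 ± 0.42, edgeR adjusted p = 0.00943), with an overlap from replicate 4. Hmgcs1, which makes HMG-CoA, was at 348 to 561 CPM in WT (median 415) and at 216, 170, 190 and 254 in MlklKO (-1.04 ± 0.28, edgeR adjusted p = 0.0341), with none. Without WT replicates 5 and 6 no lipogenesis gene was called higher and 2 were called lower (adjusted p = 0.308 for Fads1 and 0.120 for Fads2). The Fads1 call was lost without any 1 library but WT replicate 3 or 4, and that of Fads2 without MlklKO replicate 3. The Hmgcs1 call was lost in 6 of the 10 fits without 1 library, and that of Fdps without MlklKO replicate 1 or 2.

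Choline and methionine metabolism, the pathway that the diet limits, had 2 of 22 genes higher, 2 lower and 18 that did not pass, beside 2.56% called of all tested genes. Mat1a, which makes S-adenosylmethionine, was at 1205 to 1898 CPM in WT (median 1365) and at 2329, 2927, 2822 and 3008 in MlklKO (0.96 ± 0.20, edgeR adjusted p = 0.00283). Ahcy, which hydrolyses S-adenosylhomocysteine, was at 332 to 800 CPM in WT (median 595) and at 1130, 1497, 1277 and 1388 in MlklKO (1.22 ± 0.26, edgeR adjusted p = 0.00419). Both were outside the clock-following class, and every MlklKO value was above WT. Without WT replicates 5 and 6 the adjusted p of Ahcy was 0.0641. Chka, the first step of phosphatidylcholine synthesis from choline, was lower and clock-following.

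In the stress lists, Asns was the only one of 20 unfolded protein and integrated stress response genes that was higher, and Atf4 and Chac1 were lower, beside 1.64% and 0.929% of all tested genes. Atf4, the transcription factor of that response, was at 208 to 325 CPM in WT (median 248) and at 139, 126, 112 and 178 in MlklKO, all below WT (-0.87 ± 0.19, edgeR adjusted p = 0.00708). Chac1, a glutathione-degrading target of ATF4, was at 4.51 to 26.8 CPM in WT (median 17.9) and at 5.26, 3.13, 5.77 and 2.23 in MlklKO, values that overlap (-1.97 ± 0.51, edgeR adjusted p = 0.0251; up to 0.106 with 1 library left out). Asns, another ATF4 target, thus went up where Atf4, Chac1 and Fgf21 went down. Of 16 heat shock genes Hspa8, a constitutive chaperone, was higher (1.0 ± 0.21, adjusted p = 0.00309). None of 18 NRF2 antioxidant, 16 p53 target or 16 growth hormone and IGF axis genes passed.

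The study's stated endpoints include inflammation and tumour incidence. None of 20 inflammation, 21 acute phase and metallothionein, 22 interferon-stimulated, 15 lipid-associated macrophage or 19 fibrosis genes passed in either direction. With 2.56% of all tested genes called, lists of this size would hold few called genes in any case, so these counts show nothing particular to the lists. The inflammation list had a median of -0.41, with 7 of its 20 genes positive, beside -0.0019 and 49.7% over all tested genes. Its median was 0.041 with the clock index in the model and -0.075 on CD-HFD. Il1b, a macrophage cytokine named after its values were seen, had every MlklKO value below every WT value and did not pass (-1.73 ± 0.51, edgeR adjusted p = 0.0528). Cxcl1, a neutrophil chemokine, was at 11.2 to 97.9 CPM in WT (median 24.9) and at 14.2, 16.5, 16.5 and 11.2 in MlklKO (-1.30 ± 0.64, edgeR adjusted p = 0.322). Spp1, osteopontin, was at 98.4 to 293 CPM in WT (median 173) and at 118, 186, 98.5 and 146 in MlklKO (-0.41 ± 0.36, edgeR adjusted p = 0.634). The values of Cxcl1 and Spp1 overlapped widely, and a p that misses the threshold does not show equal levels. Of 20 proliferation genes only Tk1, thymidine kinase, was higher (1.12, adjusted p = 0.0175, and 0.0539 without WT replicates 5 and 6), while Mki67 was at 5.02 to 19.2 CPM in WT and 4.92 to 8.34 in MlklKO. Of 18 tumour and oncofetal genes only Cyp17a1, a steroid hydroxylase that is also female-biased, was higher (1.90 ± 0.35, adjusted p = 0.000885). The marker lists of Kupffer cells, monocytes, neutrophils, T and NK cells, B cells, stellate cells, endothelium and cholangiocytes held no called gene.

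**Figure D5:**
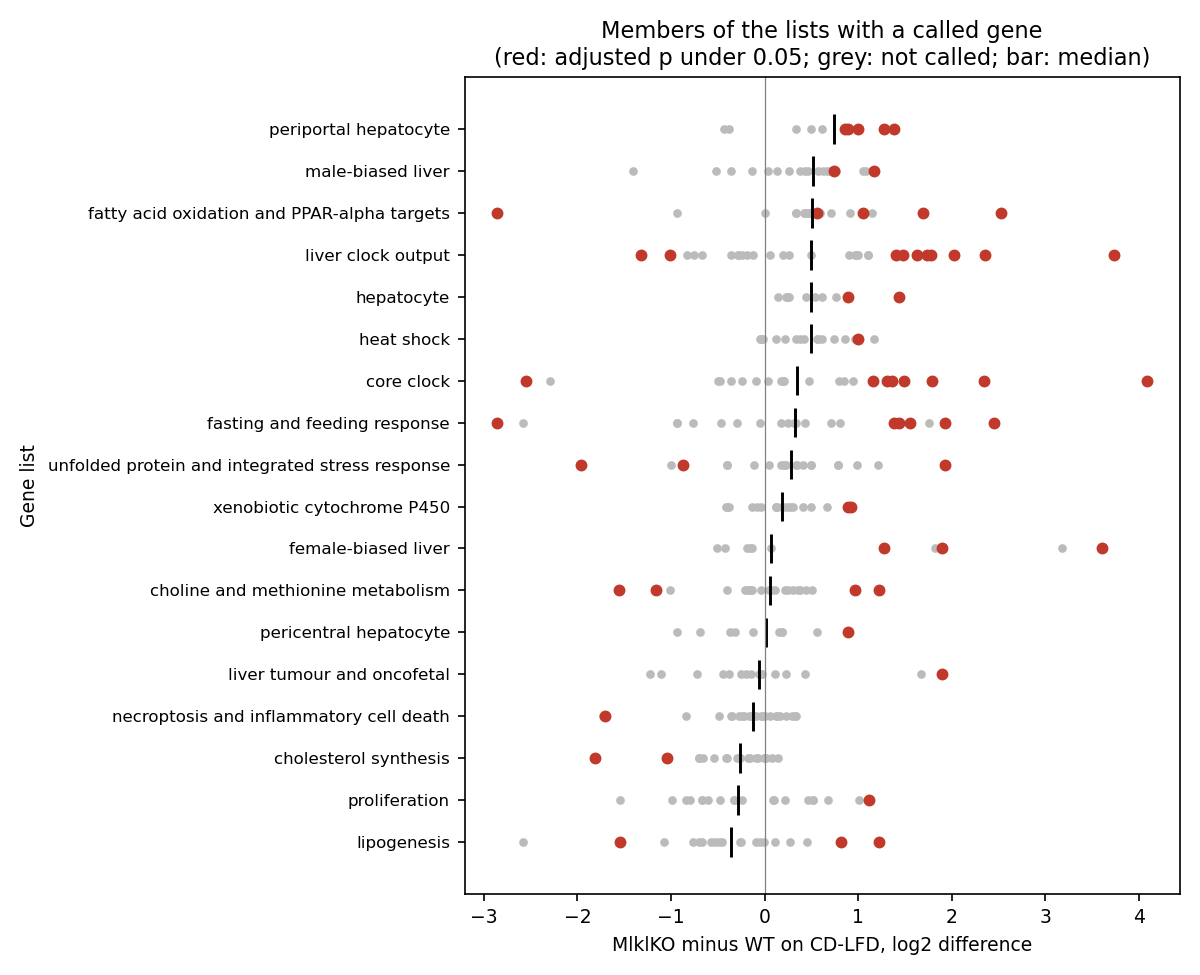
Log2 difference, MlklKO minus WT on CD-LFD, of each tested member of the gene lists shown, which hold a called gene (red: adjusted p under 0.05, grey: not called), with the list median as a bar, ordered by median. Among the lists shown, the median was 0.74 for periportal genes and -0.36 for lipogenesis.

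Sex-biased liver genes were looked at because the labels give no sex. Ddx3y was at 41.8 to 61.4 and Xist at 0.153 to 1.39 CPM of the library total in all 10 libraries, a male pattern in both groups. Of 20 male-biased genes 2 were higher (Mup21 and Mup3) and of 11 female-biased genes 3 were higher (Cyp17a1, Fmo2 and Acot3), with none lower in either list, beside 1.64% and 0.929% of all tested genes. The male-biased list had 16 of 20 genes positive and a median of 0.52 on CD-LFD, and 2 of 20 and -0.65 on CD-HFD, a difference between diets that was not tested for the list. Acot3, a peroxisomal thioesterase and clock-following, was at 0.495 to 1.34 CPM in WT (median 0.636) and at 2.80, 5.22, 3.37 and 23.4 in MlklKO (3.60 ± 0.92, edgeR adjusted p = 0.022). Acot3 and Fmo2 were not called without MlklKO replicate 4 (adjusted p = 0.257 and 0.225), nor Mup21 without MlklKO replicate 1 or 2, nor Mup3 under most alternatives.

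The same genes can be measured in other MlklKO and WT mice, on CD-HFD, where the phases of the groups overlapped. Mlkl was at 14.4 CPM of the library total in the liver labelled MlklKO CD-HFD replicate 1, where the other 2 had 6.02 and 3.55 and the WT libraries on that diet 17.2 to 22.6. Each result below is therefore given with all 3 libraries and then without this one, a choice made after the values were seen.

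With all 3, no gene passed an adjusted p of 0.05 there by edgeR (1246 or 8.38% at an unadjusted p below 0.05, and 2 by DESeq2). Of the 381 genes, 320 (84.0%) had the same sign on CD-HFD, against 58.4% of all tested genes, and the median size of the difference was 0.298 of that on CD-LFD. Of the 306 outside the clock-following class, 83 (27.1%) had the same sign with an unadjusted p below 0.05, against 5.87% of all tested genes. Without MlklKO CD-HFD replicate 1, 302 of the 381 (79.3%) had the same sign, against 55.1% of all tested genes, and the median ratio was 0.324. The 381 were chosen by their difference on CD-LFD, so small ratios follow in part from that choice. The count with an unadjusted p below 0.05 was then 69 of the 306 (22.5%), against 4.25% of all tested genes. Fgf21 differed by -2.16 on CD-HFD (unadjusted p = 8.2e-05), Scara5 by 1.75 (6.1e-05), Lepr by 2.39 (0.0012), Atf4 by -0.92 (0.00011) and Mlkl by -1.29 (7.0e-05), each in its direction on CD-LFD. Without the doubted library Fgf21 was at -2.31 (unadjusted p = 0.00039), Scara5 at 2.01 (3.0e-05), Lepr at 2.54 (0.0015), Atf4 at -1.09 (0.00011) and Mlkl at -2.08 (6.8e-08). Mlkl was the one gene of all tested then called (0.00652%; edgeR adjusted p = 0.00105), with 963 genes (6.28%) at an unadjusted p below 0.05. Hmgcs1 (-1.16, unadjusted p = 0.00067), Fdps (-1.59, 0.003) and Sds (1.0, 0.0023) had their CD-LFD direction as well, and were at -1.46 (0.00031), -2.39 (0.00034) and 1.17 (0.0015) without it. Asns (0.30, 0.48), Pck1 (0.30, 0.31) and Pim3 (0.27, 0.28) had differences with larger p there, and were at 0.55, 0.34 and 0.31 without that library. For the clock genes the differences on CD-HFD were 0.58 for Ciart, 0.44 for Usp2, -0.33 for Arntl and 0.23 for Dbp, and without that library 0.64, 0.40, -0.16 and 0.14.

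The difference between the diets was tested as an interaction. No gene passed for CD-LFD against CD-HFD (1193 at an unadjusted p below 0.05 by edgeR, and 2 by DESeq2), nor without MlklKO CD-HFD replicate 1 (1162 at an unadjusted p below 0.05). Against chow 1256 genes passed (8.45% of tested), including 111 of the 381, and there the WT libraries were split between clock phases, with 4 of 6 on the side of the WT CD-LFD libraries. On chow 4029 genes were called between MlklKO and WT (27.1%), and 275 of the 381 (72.2%) had the sign seen on CD-LFD, against 58.0% of all tested. Tsc22d1 (-2.11), Scara5 (1.81), Eif4ebp3 (2.91), Lepr (2.90) and Angptl4 (1.66) were called on chow in the same direction, and Acot1 was at -0.43 there against 2.53 on CD-LFD.

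Ripk3KO livers on CD-LFD were in the same phase as MlklKO, so the knockouts can be compared without the difference in index. Ripk3KO replicate 3 had Xist at 11.7 CPM of the library total beside Ddx3y at 50.1, where the other 2 had Xist at no more than 0.384. Between them 9 genes of 14862 passed (0.0606%), 5 higher and 4 lower in MlklKO, and 701 had an unadjusted p below 0.05. Mlkl (-1.82) and Ripk3 (5.08) were among them, with Psmb5 (1.15), Cebpe (4.83), Ppp1r3e (2.90), Gm43305 (7.66), Nuggc (-5.36) and Gm3375 (-6.45). Ripk3 had at most 1 count in any Ripk3KO library, so its fitted value depends on the prior count and is no bound. For the 306 genes called against WT outside the class, the median absolute log2 difference between the knockouts was 0.32, beside 1.0 between MlklKO and WT. For the 75 clock-following genes these were 0.24 and 1.32, and over all tested genes 0.19 and 0.24. Both sets were chosen by their difference between MlklKO and WT, so the gap between these medians follows in part from that choice. Without Ripk3KO replicate 3, 7 of the 9 genes were called, 4 higher and 3 lower, and the medians between the knockouts were 0.31 and 0.25.

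Levels in the 3 Ripk3KO libraries are given beside the MlklKO values, and both knockouts are read against the same WT libraries. Against WT, 164 genes (1.1%) were called in Ripk3KO, and 117 without its replicate 3. Fgf21 was at 12.7, 9.70 and 12.9 CPM in Ripk3KO, within or just below the MlklKO range of 11.3 to 15.9. Asns was at 27.9, 36.0 and 23.3, Scara5 at 39.2, 55.9 and 27.2, and Slc43a1 at 17.7, 27.6 and 15.5 CPM. All of these lay outside the WT range, on the side of MlklKO. Pim3 was at 144, 196 and 75.5 CPM and Rhbdd2 at 21.9, 39.8 and 17.7, where replicates 1 and 3 lay below every MlklKO library. In replicate 3, Pim3 lay inside the WT range of 58.4 to 83.8 CPM, and Tsc22d1 (119 CPM) inside that of 117 to 215. Of the 100 tested genes that flank Mlkl in gene order, 50 on each side, 2 were called (2%, beside 2.56% of all tested), Wwp2 (-0.39, edgeR adjusted p = 0.0488) and Tat (1.44).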

How the data were processed

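The deposited values are whole-number counts of reads for 35249 Ensembl gene IDs in 44 libraries, per the file headers. The submitters' processing notes name FastQC, STAR, HTSeq, edgeR, limma and GRCm39 (mm39), without versions or settings. Libraries came from a directional kit, per the labels' protocols, and the strand setting of the counting is not given in the sources used here. Symbols were matched for 34373 genes. A filter on low counts (filterByExpr, minimum 10) over the 9 groups left 14862. The test was the edgeR (4.0.16, R 4.3.3) quasi-likelihood F test with TMM scaling and 1 mean per group over all 44 libraries, with Benjamini-Hochberg adjustment within each comparison and a threshold of 0.05. All adjusted p-values are from it unless another tool is named. Values after ± are standard errors.

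The clock index was the log2 ratio of Arntl to Dbp (prior count 2). Named genes were the 8 largest rises and falls outside the clock-following class and the 4 largest within it, among called genes with a mean log2 CPM of at least 1, no overlap and no predicted-gene symbol, with all core clock genes and up to 4 genes of each list. Flanking genes of Mlkl were taken by gene order, since no annotation of the files' build was used here. The comparison, members and lists were chosen with earlier results of these data known. Alternatives were RLE scaling, library size alone, no count filter, a robust fit, a replicate block, clock covariates, the compared groups alone, DESeq2 (1.42.0), and leaving out each library. Replicate numbers do not pair the samples. A few genes that the rule names are not reported here. Tests were checked on simulated data. Counting floors were 3 counts, for counting error only.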

Additional observations from a re-analysis of the deposited data

Results flagged for a closer look

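In 14 of 88 groups of values 1 library lay far from the rest of its group by Dixon's criterion, which chance meets in about 1 of 20 groups. Among WT livers on CD-LFD these were the total counts of replicate 3 (88204703, others at most 7267277) and its Scara5 (12.9 CPM), Arntl (18.8), Clock (42.9) and Csnk1d (87.3). Replicate 5 stood apart in AC154912.1 (5.07 CPM) and Fgf21 (203), replicate 6 in Elf3 (11.6) and Chka (367), and replicate 1 in Atp2b2 (27.8). Among MlklKO livers, replicate 1 had the highest total (12471844 counts). Replicate 4 stood apart in AA986860 (14.3 CPM), Per2 (217) and Cry2 (35.7). The last 2 of these genes belong to the core clock.

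For 1256 genes the MlklKO minus WT difference was not the same on CD-LFD and on chow by the edgeR interaction test. Among the genes named by size, the log2 difference on CD-LFD exceeded that on chow by 2.96 for Acot1, 3.61 for Ciart and 4.84 for Usp2. It was lower by this measure for Elf3 (-2.45) and Tubb2a (-3.13). WT livers on chow were themselves split in clock index, and the part of that split in these values was not tested.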

How the results depend on the processing

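The 381 calls became 391 (RLE), 375 (robust fit), 297 (no count filter), 873 (library size alone, 148 higher and 725 lower), 576 (compared groups alone), 633 (DESeq2) and 175 without WT replicates 5 and 6, a choice made after seeing the data. A clock term left 18 (index), 19 (index from other genes) or 1 (phase in 2 levels). The 306 calls outside the clock-following class became 782 (library size alone), 14, 17 and 1 (the 3 clock terms), 138 (without WT replicates 5 and 6), 462 (compared groups alone) and 532 (DESeq2). Leaving out 1 library gave 180 to 436 and 138 to 372 calls, both lowest without MlklKO replicate 2, and the 381 fell by over 1.5 times also without WT replicate 5 (251) or 6 (225) or MlklKO replicate 1 or 4 (222 each). The comparison of knockouts gave 6 to 9 with 1 library left out and 8 to 10 under the other settings. The clock-following class held 183 genes with the other index, 10 without the WT chow libraries and 110 in WT libraries. The CD-HFD interaction gave 2 genes without the filter, 2 by DESeq2 and 0 to 1 with 1 library left out. The chow interaction gave 741 with the compared groups alone and 829 to 1868 with 1 library left out. The same-sign share on CD-HFD was 74.8% (library size alone), 78.1% (compared groups alone), 76.5% (DESeq2) and 77.0 to 90.5% with 1 library left out. On chow it was 77.1% without the filter, 77.1% without WT replicates 5 and 6 and 66.4 to 78.3% with 1 library left out.

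Replicate numbers do not pair the samples (same-number correlations of -0.057, 0.0691, 0.251 and -0.0462, with 2 of 4 best with their own number). With the replicate block there were 283 calls, 225 of them outside the class, and 77.0% of the same sign on CD-HFD, and the sign turned for Ripk3 (0.12), Nr1d1 (-0.034) and Bhlhe40 (-0.086).

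None of the genes that changed sign below was called under the setting named, and the cause was not tested. With library size alone these were Cry1 (-0.0067), Nr1d1 (-0.017), Rora (-0.062) and Bhlhe40 (-0.16). With the index they were Ripk3 (0.021), Chka (0.045), Clock (0.44), Npas2 (0.81), Per3 (-0.18), Cry1 (-0.22), Cry2 (-0.025), Nr1d2 (-0.14), Dbp (-0.050), Nfil3 (0.16) and Bhlhe40 (-0.12). With the other index they were Clock (0.50), Npas2 (0.77), Per3 (-0.16), Cry1 (-0.066), Nr1d2 (-0.11) and Nfil3 (0.17). With phase in 2 levels they were Ripk3 (0.0079), Arntl (0.31), Chka (0.36), Clock (0.91), Npas2 (0.85), Per2 (-0.13), Per3 (-0.69), Cry1 (-0.26), Cry2 (-0.33), Nr1d2 (-0.20), Dbp (-0.64), Tef (-0.25), Hlf (-0.036), Nfil3 (0.39), Bhlhe40 (-0.16), Chac1 (0.14) and Acot3 (-0.10). Without WT replicates 5 and 6 they were Ripk3 (0.21), Cry1 (-0.052) and Bhlhe40 (-0.17). With 1 library left out, Cry1 ranged from -0.31 (without MlklKO replicate 4) to 0.41, Nr1d1 from -0.097 (without MlklKO replicate 3) to 0.53 and Bhlhe40 from -0.071 to 0.21. Of the 63 called named genes, 34 kept their call in every fit without a clock term.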

Other observations

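Amino acid breakdown was looked at after the values were seen, as was the choice of each list in this section, so the counts carry no test. Of 35 tested urea cycle and amino acid breakdown genes, 12 were called higher in MlklKO on CD-LFD and none lower (edgeR, beside 2.56% of all genes), 33 were positive and the median log2 difference was 0.51 (0.38 with the clock index). Asl, which splits argininosuccinate (1.32), Got1, an aspartate aminotransferase (1.51), and Hpd, an enzyme of tyrosine breakdown (0.85), were called beside Tat, Sds, Ass1 and Gls2. None of the 12 was clock-following, and 6 were called without WT replicates 5 and 6.

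Of 19 genes known to respond to the glucocorticoid receptor, 7 were called higher and none lower, beside 1.64% and 0.929% of all tested genes, with a median of 0.81 (0.70 with the index). They were Fkbp5, Zbtb16, Tat, Per1, Pck1, Klf15 (1.0) and Angptl4, of which 3 were clock-following, and the count was also 7 without WT replicates 5 and 6. Of 12 tubulin genes, 4 were called lower and none higher, beside the same shares of all genes, with a median of -0.55. They were Tubb2a (-2.48), Tuba1c (-1.41), Tubb4b (-1.04) and Tuba4a (-0.75), and the count was also 4 without those replicates.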
